A study of Mus musculus with 12 samples.

Results

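Tumour necrosis factor (TNF) superfamily ligands and TNF receptors were followed as 8 genes, chosen by name from the 43131 genes of the count table. Tnf, Ltb, Tnfsf9, Tnfsf10, Tnfsf13b and Tnfsf15 are the 6 ligands, and Tnfrsf1a and Tnfrsf1b are the 2 receptors. Each gene was read from its transcript row with the most counts over all libraries, and its level is given in CPM, the read counts scaled to library size by the trimmed-mean (TMM) method. RNA was sequenced from bone marrow-derived macrophages (BMDMs), which are grown from mouse bone marrow precursors, in 12 libraries. The C57BL/6 mice were tlr4f/f, which carry a floxed tlr4 allele, or tlr4f/f-lysM-cre, in which the lysozyme M promoter also drives Cre recombinase in myeloid cells. The floxed allele is therefore shared by every group. The cells had grown for 7 days with 50 ng/mL M-CSF and were left without lipopolysaccharide (LPS-) or kept for 6 hours with 1 µg/mL LPS (LPS+), the bacterial ligand of TLR4, with 3 libraries in each of the 4 groups. Sources used here do not say that the 3 libraries came from separate mice, so the p-values measure the spread between these libraries, which may be technical.

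TNF superfamily ligands are trimeric proteins, most of them made as membrane proteins, and they bind receptors that recruit TRAF adaptors or death-domain adaptors. In macrophages, LPS sensed by TLR4 is known to induce Tnf through NF-kB within hours. Of the 2 TNF receptors, TNFR1 (Tnfrsf1a) has a death domain and is present on most cell types, while TNFR2 (Tnfrsf1b) has none and is most prominent on blood and immune cells.

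The column headings limit every reading of these data. The groups are called A to D here: group A is headed LPS- tlr4f/f, group B is headed LPS- tlr4f/f-lysM-cre, group C is headed LPS+ tlr4f/f, and group D is headed LPS+ tlr4f/f-lysM-cre. Tlr4, the gene targeted by Cre, was 115 ± 35.3 CPM (SD, n = 3) in group A, 109.6 ± 12.5 CPM in group B, 27.7 ± 3.4 CPM in group C and 25.6 ± 1.64 CPM in group D. Lyz2, the gene that carries Cre in lysM-cre mice and has a close paralog, Lyz1, had 221787 to 1244818 counts per library in groups A and B and 494 to 3272 in groups C and D. Il1b, an LPS-induced cytokine gene, had 4 to 405 counts per library in groups A and C and 52432 to 306385 in groups B and D. These counts go against the headings of groups B and C, which may have been exchanged, so both readings are given.

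Group B against group A is a comparison of genotype without LPS as headed, and of LPS in tlr4f/f cells if the headings were exchanged. Group D against group C is genotype under LPS as headed, and LPS in tlr4f/f-lysM-cre cells if exchanged. Group C against group A is LPS in tlr4f/f cells as headed, and genotype without LPS if exchanged. Group D against group B is LPS in tlr4f/f-lysM-cre cells as headed, and genotype under LPS if exchanged. Groups D and A differ in both genotype and LPS in either reading, and the interaction of genotype and LPS has the same value in both.

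Tnf, Tnfsf10, Tnfsf15 and Tnfrsf1b were higher in group B than in group A and in group D than in group C, by 7.26-fold (Tnfrsf1b, D against C) to 379-fold (Tnfsf15, B against A). Tnfsf9 was called higher in group B than in group A, Tnfrsf1a was 2.03-fold higher there, and Tnfsf13b was lower in group D than in group C. Ltb was not called in any pair. Between groups A and C, edgeR called none of the 8 genes and none of the 14701 genes tested (0%).

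A gene was called where edgeR's quasi-likelihood test gave a fold change over 2 and a Benjamini-Hochberg adjusted p under 0.01, and its error is the standard error (SE) of the log2 fold change. Library totals over genes ran from 33577087 to 56445268 counts, with a median of 45330681. The TMM factors that scale these totals differed between groups. They were 1.10 to 1.21 in group A, 0.700 to 0.822 in group B, 1.16 to 1.20 in group C and 0.948 to 0.966 in group D. In group A, replicate 3 had 4 Il1b counts and 1244818 Lyz2 counts, against 256 and 405 Il1b counts and at most 591201 Lyz2 counts in the other 2. Summed macrophage markers (7 genes, among them Adgre1 and Csf1r) were 4407 to 13683 CPM in all libraries. Markers of T and NK cells (7 genes) summed to at most 6.79 CPM, those of B lymphocytes (5 genes) to at most 1.96 CPM and those of mast cells and basophils (4 genes) to at most 2.79 CPM.

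Marker sums of other cell types also differed between the groups in which Tnf, Tnfsf10, Tnfsf15 and Tnfrsf1b were high and low. Dendritic cell markers (5 genes) summed to 4.75 to 13.1 CPM in group B against 0.206 to 0.770 CPM in group A, and to 2.90 to 3.71 CPM in group D against 0.379 to 0.733 CPM in group C, with no overlap in either pair. Xcr1 and Ccr7 had most of these reads, while Flt3 and Siglech had at most 2 counts in any library. Neutrophil and granulocyte precursor markers (7 genes) summed to 27.2, 14.7 and 186 CPM in group B and 0.561 to 13.2 CPM in group A, and overlapped between group D (5.41 to 7.64 CPM) and group C (4.55 to 6.61 CPM). By mean CPM, S100a8 made up most of the sum in group B, and Ly6g had at most 1 count in any library. The macrophage markers summed to 10569 to 13683 CPM in group B against 6235 to 7196 CPM in group A, and 7748 to 7950 CPM in group D against 4407 to 4668 CPM in group C. Not every macrophage marker was higher. By mean CPM, Csf1r (2073 to 1376) and Cd68 (866 to 828) fell from group A to group B. From group C to group D, Cd68 (785 to 613) and Itgam (1174 to 1137) fell. The remaining macrophage markers, among them Adgre1 and Cd14, rose in each pair. The part of these cells in the levels of the 8 genes was not tested.

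Promoter sequences are shown for the pair of genes with the most reads, Tnf and Tnfrsf1b, for Tnfsf10 and Tnfsf15, which showed the largest fold changes beside Tnf, and for Ltb, which lies next to Tnf on chromosome 17. In mm10, Ltb is at chr17:35194439-35196320 on the plus strand and Tnf at chr17:35199381-35202007 on the minus strand. Tnfsf9 is at chr17:57105325-57107757 (plus strand), Tnfsf10 at chr3:27317028-27342427 (plus), Tnfsf13b at chr8:10006467-10039072 (plus), Tnfsf15 at chr4:63727084-63745113 (minus), Tnfrsf1a at chr6:125349362-125362484 (plus) and Tnfrsf1b at chr4:145213463-145246870 (minus). RefSeq (GRCm38.p6) gives the sequence before the transcription start for 7 of the 8 genes. Printed here, 5′ to 3′ on the strand of each gene, is the part of the 250 bases before that start that also precedes the start of the gene in GENCODE. These are chr17:35202008-35202257 (Tnf), chr17:35194257-35194438 (Ltb), chr3:27316827-27317027 (Tnfsf10), chr4:63745114-63745309 (Tnfsf15) and chr4:145246871-145247120 (Tnfrsf1b). Capitals mark matches to the motifs searched.
Tnf: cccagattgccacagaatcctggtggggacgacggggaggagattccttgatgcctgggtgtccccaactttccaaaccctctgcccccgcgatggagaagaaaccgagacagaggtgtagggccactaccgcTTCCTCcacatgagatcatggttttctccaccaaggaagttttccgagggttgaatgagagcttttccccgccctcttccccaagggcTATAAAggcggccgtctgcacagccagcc
Ltb: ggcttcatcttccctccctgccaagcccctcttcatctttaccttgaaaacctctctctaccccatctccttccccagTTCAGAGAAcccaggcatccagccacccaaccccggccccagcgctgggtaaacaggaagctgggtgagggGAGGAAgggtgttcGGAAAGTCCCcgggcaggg
Tnfsf10: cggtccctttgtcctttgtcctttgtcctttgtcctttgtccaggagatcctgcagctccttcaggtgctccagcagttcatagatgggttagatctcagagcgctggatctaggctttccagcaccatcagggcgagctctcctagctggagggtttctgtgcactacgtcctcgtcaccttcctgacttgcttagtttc
Tnfsf15: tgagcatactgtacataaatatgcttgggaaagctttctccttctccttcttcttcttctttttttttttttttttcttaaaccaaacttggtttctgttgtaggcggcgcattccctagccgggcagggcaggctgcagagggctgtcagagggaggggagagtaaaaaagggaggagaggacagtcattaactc
Tnfrsf1b: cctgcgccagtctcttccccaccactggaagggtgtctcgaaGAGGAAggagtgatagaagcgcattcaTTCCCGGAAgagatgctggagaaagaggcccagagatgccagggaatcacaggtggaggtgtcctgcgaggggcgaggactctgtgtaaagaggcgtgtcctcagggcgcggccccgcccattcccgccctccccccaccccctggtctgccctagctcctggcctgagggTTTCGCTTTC

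Motifs were searched on both strands of the whole 250 bases. They were the TATA box (TATAAA), the PU.1 core (GAGGAA), an AP-1 site (TGANTCA), an interferon-stimulated response element (ISRE, GAAANNGAAA), a STAT-type GAS element (TTCNNNGAA), a broad kB-like site (GGGNNNTTCC) and the NF-kB consensus by name, which overlaps the kB-like site. Tnf held a TATA box 29 to 24 bases before its start and a PU.1 core, and Tnfrsf1b held an ISRE in the last 10 bases before its start, a GAS element and a PU.1 core. Ltb held the NF-kB consensus 87 to 78 bases before its start, where the kB-like site also matched, and a PU.1 core and a GAS element. Tnfsf10 and Tnfsf15 held none of these letters in the window. Of the promoters not printed, that of Tnfrsf1a held a GAS element, and 1 of 2 for Tnfsf13b held an AP-1 site and an ISRE. These matches all lie inside the gene as GENCODE gives it, after its start there. Over 32841 RefSeq promoters of the same length, 3.9% held the NF-kB consensus, 4.65% the kB-like site, 2.98% the ISRE, 6.75% the AP-1 site, 7.02% the GAS element, 12.4% the TATA box and 23.3% the PU.1 core. A match is a description of letters and not a bound site.

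Tnf encodes TNF-alpha, the ligand of both receptors. Its level was 51.9, 33.5 and 15.9 CPM in the 3 libraries of group A, and 34.2, 27.9 and 29.5 CPM in group C. It was 4992, 1677 and 1488 CPM in group B, and 1028, 1325 and 992 CPM in group D. Every library of groups B and D lay above every library of groups A and C, and replicate 1 of group B stood apart at 186059 counts against 53626 and 47789 in the other 2.

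In group B, Tnf was 80.0-fold higher than in group A (log2 6.32, SE 0.780, adjusted p = 0.00209, edgeR). In group D, it was 36.3-fold higher than in group C (log2 5.18, SE 0.151, adjusted p = 5.66e-08, edgeR). Tnf did not differ detectably between groups A and C (log2 -0.13, SE 0.403, adjusted p = 0.875, edgeR), whose libraries overlapped. Between groups B and D the libraries did not overlap, with group D below group B (log2 -1.28, SE 0.480), and the difference did not pass the threshold (adjusted p = 0.0930, edgeR). The interaction did not pass it either (log2 -1.14, SE 0.682, adjusted p = 0.350, edgeR). Without replicate 2 of group A, the first of these differences had an adjusted p of 0.0119 by edgeR and was no longer called.

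Tnfsf10 encodes TRAIL, a ligand that engages death receptors. It was listed at 63, 139 and 100 counts in group A (1.73 ± 0.59 CPM) and at 60, 47 and 37 in group C (1.03 ± 0.344 CPM). Group B held 3826, 6519 and 3303 counts (136 ± 58.4 CPM), and group D held 1328, 1390 and 1992 (37.8 ± 6.80 CPM). Groups A and C overlapped each other, and groups B and D did not overlap each other or groups A and C.

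Tnfsf10 was 78.1-fold higher in group B than in group A (log2 6.29, SE 0.451, adjusted p = 0.000603, edgeR). It was 37.4-fold higher in group D than in group C (log2 5.22, SE 0.250, adjusted p = 1.29e-06, edgeR). Tnfsf10 was 1 of 2 members called between groups B and D, being 3.57-fold lower in group D than in group B (log2 -1.84, SE 0.296, adjusted p = 0.00751, edgeR). With any 1 library left out of group D, that call was lost (highest adjusted p = 0.0470, edgeR), with the log2 difference between -2.03 and -1.45 over all 13 settings run.

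Tnfsf15 encodes TL1A, the ligand of the receptor DR3. Group A held 19, 53 and 29 counts (0.572 ± 0.264 CPM) and group C 169, 141 and 154 (3.27 ± 0.535 CPM). Its level was 77.6, 377 and 208 CPM in group B (221 ± 150 CPM), and 70.3, 105 and 82.4 CPM in group D (86.0 ± 17.8 CPM). Unlike Tnf and Tnfsf10, Tnfsf15 showed no overlap between groups A and C, and groups B and D overlapped through replicate 1 of group B.

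Tnfsf15 had the largest fold change of the 8 genes, at 379-fold between group B and group A (log2 8.56, SE 0.801, adjusted p = 0.00100, edgeR). The rise from group C to group D was 26.5-fold (log2 4.73, SE 0.213, adjusted p = 3.36e-06, edgeR). Between groups A and C, group C was 5.78-fold above group A (log2 2.53, SE 0.404), a difference that was not called (adjusted p = 0.04996, edgeR). DESeq2, run on the same counts, called it. The interaction was -3.86 on the log2 scale (SE 0.718, adjusted p = 0.0130, edgeR) and was not called.

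Markers of other cell types differed beside Tnfsf15. Endothelial markers (4 genes, of which Kdr had most of the reads) summed to 48.2, 117 and 36.1 CPM in group B. The highest sum was in replicate 2, where Tnfsf15 was also highest within group B, as were Tnfsf9, Tnfsf10, Ltb and Tnfrsf1a. The endothelial markers summed to 3.81 to 15.96 CPM in group A, 4.15 to 6.91 CPM in group C and 8.73 to 13.5 CPM in group D. Cdh5 had 44 to 112 counts per library in group B and 1 to 46 in group A, and Tek and Emcn had at most 10 counts in any library of group B. Fibroblast and stromal markers (5 genes) summed to 966, 186 and 1471 CPM in group B, where replicate 2 was the lowest, and to 9.05 to 663 CPM in group A, 20.1 to 24.8 CPM in group C and 44.0 to 56.0 CPM in group D. In bulk RNA, fewer cells of a type and less RNA per cell cannot be told apart, and the part of these cells in the level of Tnfsf15 was not tested.

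Tnfsf9 encodes 4-1BB ligand, a co-stimulator of T cells. No other of the 8 genes shared its order of groups by mean CPM. The same was true of Ltb and Tnfsf13b, in which some neighbouring groups overlapped. Group A held 14.1, 10.4 and 18.8 CPM and group B 93.6, 138 and 81.1 CPM. Group C held 6.45, 5.48 and 4.47 CPM and group D 9.29, 10.2 and 8.13 CPM. None of the 4 groups overlapped, and group D lay below group A, with group B the only group far above the rest.

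Tnfsf9 was 7.16-fold higher in group B than in group A (log2 2.84, SE 0.296, adjusted p = 0.00122, edgeR). It was 1.68-fold higher in group D than in group C (log2 0.75, SE 0.147, adjusted p = 0.000772, edgeR), which is under the fold needed for a call. The interaction, which is the change from group C to group D less the change from group A to group B, was -2.10 on the log2 scale (SE 0.349, adjusted p = 0.00877, edgeR), and Tnfsf9 was the only member for which edgeR called it. Of all 15775 genes tested, 1.04% were called for the interaction, with 0.38% of all genes called lower. For the interaction, DESeq2 called 3 of the 8 members and 4.08% of all genes, and at an adjusted p under 0.05 edgeR called 3 members and 3.99% of all genes. The fall from group B to group D was 11.2-fold (log2 -3.49, SE 0.218, adjusted p = 0.000881, edgeR). With any 1 library left out of group D, the adjusted p of that fall rose to as much as 0.0142 by edgeR, while its log2 value stayed between -3.66 and -3.25. Group C was below group A (log2 -1.37, SE 0.253), which was not called by edgeR (adjusted p = 0.0563) and was called by DESeq2.

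Ltb, whose product lymphotoxin-beta forms a membrane complex with lymphotoxin-alpha and signals through the lymphotoxin-beta receptor, had 6 to 57 counts per library. Group A held 16, 22 and 8 counts and group C 7, 23 and 6. Group B held 24, 33 and 25 counts and group D 44, 57 and 29. In CPM, groups B and D did not overlap groups A and C, by a narrow margin. Replicate 1 of group B had 24 counts (0.644 CPM) and replicate 2 of group C had 23 (0.589 CPM). Those 2 libraries had totals of 51054086 and 33577087 counts and TMM factors of 0.730 and 1.16, so this gap depends on the scaling. The difference of group B from group A was 1.63 on the log2 scale (SE 0.536, adjusted p = 0.0526, edgeR), and that of group D from group C was 2.01 (SE 0.602, adjusted p = 0.0139, edgeR). Neither was called. The second was called in 5 of the 12 settings in which it was tested. Ltb is best known from lymphocytes, and the T and NK cell markers summed to 1.31 to 6.79 CPM in group B, 0.239 to 0.850 CPM in group A, 0.333 to 0.691 CPM in group C and 0.689 to 0.878 CPM in group D. Lck had nearly all of these reads, at a mean of 3.18 CPM in group B, and each of the other 6 markers had at most 4 counts in any library of group B. In group D, 4 of the 7 markers (Cd3g, Cd2, Ncr1 and Gzma) were at 0 in all libraries. The part of such cells in the level of Ltb was not tested.

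Tnfsf13b encodes BAFF, a survival factor for B cells. Its 4 transcript rows were counted from nearly the same reads, and the row with the most counts (616 in all) is a non-coding model, beside 614 for the reference coding row. Group A held 12, 73 and 230 counts and group B 8, 35 and 38. Group C held 57, 41 and 67 counts and group D 21, 20 and 14. Values in group A spanned 20.9-fold, from 0.205 to 4.30 CPM, and overlapped those in group B. In group D, Tnfsf13b fell by 1.35 on the log2 scale relative to group C (SE 0.324, adjusted p = 0.00306, edgeR), with no overlap, and this was the only fall of a member called in that pair. It was called in 9 of 13 settings. The difference of group B from group A was -1.19 (SE 1.11, adjusted p = 0.429, edgeR), and 0.24 without replicate 3 of group A.

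Tnfrsf1a, the death-domain receptor TNFR1, had the smallest ratio of highest to lowest group mean among the 8 genes, with means from 147 to 362 CPM. Group A held 200.2, 193 and 138 CPM and group C 140.1, 146 and 154 CPM. Group B held 358, 397 and 332 CPM and group D 222, 232 and 234 CPM. Groups A and C overlapped, and groups B and D lay above them and apart from each other. The difference of group B from group A was 2.03-fold, just past the fold needed for a call (log2 1.02, SE 0.196, adjusted p = 0.00858, edgeR). A fold this near 2 depends on the scaling of the libraries, and with RLE factors the log2 value was 1.11. With any 1 library left out of that pair, the adjusted p of this difference was 0.0152 to 0.0306 by edgeR and the call was lost. The difference of group D from group C was 1.56-fold (log2 0.64, SE 0.0542, adjusted p = 5.09e-07, edgeR) and that of group D from group B was -0.65 on the log2 scale (SE 0.105, adjusted p = 0.00751, edgeR), both under the fold needed.

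Tnfrsf1b, the receptor TNFR2, had the most reads of the 8 genes. Group A held 390.4, 381 and 279.7 CPM and group C 475, 541 and 492 CPM. Group B held 6811, 6189.8 and 4624 CPM and group D 3671, 3693 and 3635 CPM. No 2 groups overlapped. In group D the 3 libraries had a coefficient of variation of 0.804%, against 17.5% in group A, 19.2% in group B and 6.87% in group C. Tnfrsf1b was 16.6-fold higher in group B than in group A (log2 4.06, SE 0.301, adjusted p = 0.000603, edgeR). It was 7.26-fold higher in group D than in group C (log2 2.86, SE 0.0635, adjusted p = 3.73e-12, edgeR). Between groups A and C, group C was above group A by 0.54 (log2, SE 0.159, adjusted p = 0.111, edgeR), and group D was below group B (log2 -0.67, SE 0.169, adjusted p = 0.0290, edgeR). Neither was called. The interaction was -1.20 on the log2 scale (SE 0.252, adjusted p = 0.0201, edgeR).

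**Figure D1:**
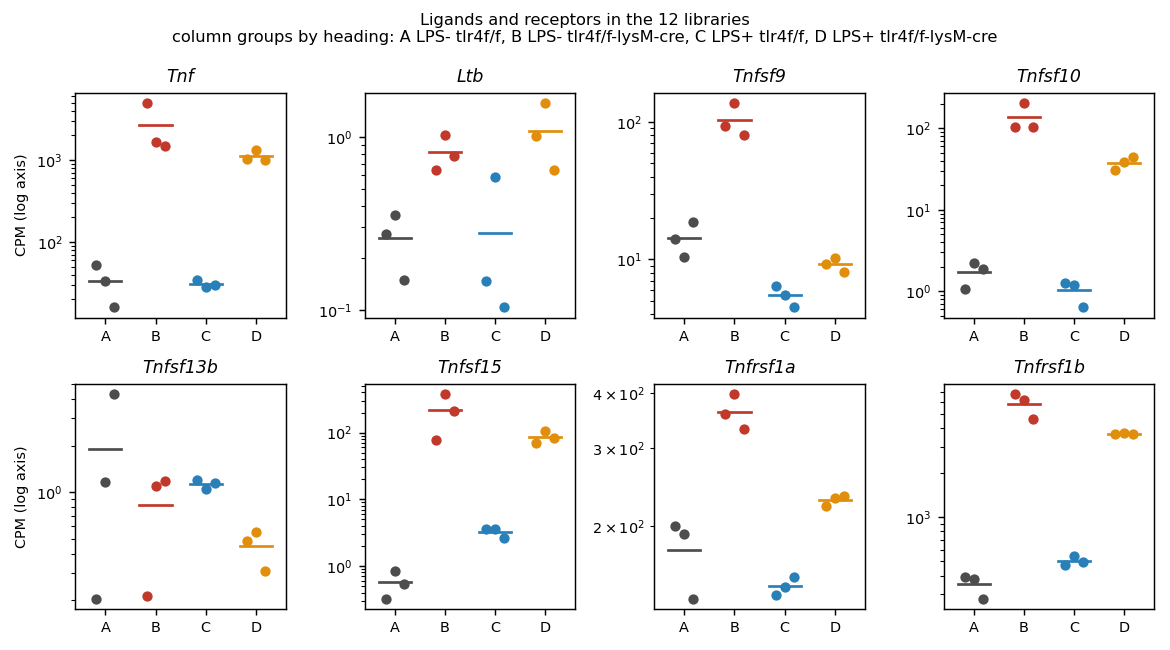
Level of each of the 8 genes in the 12 libraries, as TMM-scaled CPM on a log axis that differs between panels. Points are libraries (replicates 1 to 3 from left to right) and bars are group means, with group A headed LPS- tlr4f/f, group B LPS- tlr4f/f-lysM-cre, group C LPS+ tlr4f/f and group D LPS+ tlr4f/f-lysM-cre. Tnf, Tnfsf10 and Tnfsf15 lie 1 or more powers of 10 higher in group B and group D, Tnfsf9 stands out in group B alone at 81.1 to 138 CPM, and Tnfsf13b has its widest spread in group A.

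The balance of the 2 receptors was compared within each library, where the scaling of libraries cancels. The ratio of Tnfrsf1b to Tnfrsf1a counts was 1.95, 1.98 and 2.03 in group A and 3.39, 3.70 and 3.19 in group C. It was 19.0, 15.6 and 13.9 in group B and 16.5, 15.9 and 15.5 in group D. Groups B and D overlapped, and each of the other pairs was apart. The ratio was 8.08 times as high in group B as in group A (log2 difference 3.01), and 4.67 times as high in group D as in group C (log2 difference 2.22). With 3 libraries against 3 the smallest two-sided p of an exact permutation test is 0.1, and all pairs but group D against group B reached it (adjusted p = 0.125 over the 5 pairs). For group D against group B the log2 difference was -0.01 (exact permutation p = 0.9). Divided by transcript length, the ratio was 0.871 ± 0.018 in group A and 1.503 ± 0.112 in group C, and 7.10 ± 1.14 in group B and 7.01 ± 0.222 in group D (SD, n = 3). Per length, the TNFR1 transcript was thus the more abundant of the 2 only in group A.

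**Figure D2:**
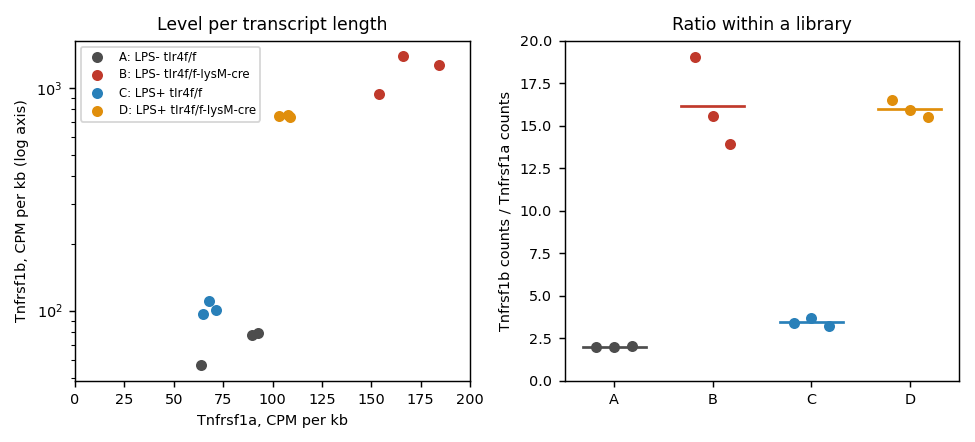
Left, level of Tnfrsf1b (log axis) against Tnfrsf1a (linear axis) in CPM per kb of transcript, with 1 point per library. Right, ratio of Tnfrsf1b to Tnfrsf1a counts, with points for libraries and bars for group means. The ratio is near 2 in group A (1.95 to 2.03), 3.19 to 3.70 in group C, and 13.9 to 19.0 in the overlapping groups B and D.

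Per transcript length, the order of the 8 genes changed between groups. In group A, the levels were 82.1 CPM per kb for Tnfrsf1a and 71.3 for Tnfrsf1b, which overlapped, followed by Tnf at 20.4 and Tnfsf9 at 11.7, which also overlapped. The remaining 4 ligands lay under 1 CPM per kb, and each overlapped its neighbour in the order. In group C, Tnfrsf1b (102 CPM per kb) lay above Tnfrsf1a (68.2), and Tnf (18.5) above Tnfsf9 (4.45), with no overlap. In group B, Tnf led at 1645 CPM per kb and overlapped Tnfrsf1b at 1196, and Tnfrsf1a (168), Tnfsf9 (84.7), Tnfsf15 (37.9) and Tnfsf10 (27.6) followed. The last pair overlapped. In group D, Tnfrsf1b (746 CPM per kb) and Tnf (675) overlapped, and Tnfrsf1a (107), Tnfsf15 (14.8), Tnfsf10 (7.64) and Tnfsf9 (7.48) followed, of which the last pair overlapped.

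Of the summed CPM per kb of the 6 ligands, Tnf made up 95.8, 95.7 and 95.2% in group D and 96.5, 82.2 and 87.9% in group B. It made up 75.3, 72.7 and 78.7% in group C and 72.3, 67.1 and 35.0% in group A. Tnfsf9 held most of what remained in groups A and C, at 26.3, 28.0 and 55.6% in group A and 19.1, 19.2 and 16.03% in group C. Its share was at most 9.09% in group B and 1.16% in group D. Tnf held most of the ligand sum in every library but replicate 3 of group A, the only library in which Tnfsf9 exceeded Tnf. The sum covers these 6 ligands alone. Tnfsf12, another ligand of the family, had mean levels of 111 CPM in group A and 158 CPM in group C, above Tnf at 33.8 and 30.5 CPM. In groups B and D it was at 39.2 and 50.7 CPM, below Tnf.

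Counted by comparison, 6 of the 8 genes were called between group B and group A, all of them higher (Tnf, Tnfsf9, Tnfsf10, Tnfsf15, Tnfrsf1a and Tnfrsf1b), against 17.1% of the 14635 genes tested and 9.25% called higher. As headed, this is the genotype difference without LPS, and with the headings exchanged it is the response of tlr4f/f cells to LPS. The median log2 fold change was 3.45 over the 8 genes and -0.08 over all genes. With any 1 library of the pair left out, 5 of the 8 were called, or 4 without replicate 2 of group A, and the call of Tnfrsf1a was lost each time. In those fits 1038 to 1682 genes of the whole table were called, against 2497 with all libraries of the pair. Between group D and group C, 5 were called, with Tnf, Tnfsf10, Tnfsf15 and Tnfrsf1b higher and Tnfsf13b lower, against 21.7% of 14540 genes (10.8% higher and 10.9% lower), with medians of 2.43 and -0.02. As headed, this is the genotype difference under LPS, and with the headings exchanged it is the response of tlr4f/f-lysM-cre cells to LPS. The first of these pairs shares no library with the second, while group D against group A shares libraries with both. In the pair of group D and group A, in which genotype and LPS both differ, Tnf (33.0-fold), Tnfsf10 (21.8-fold), Tnfsf15 (149-fold) and Tnfrsf1b (10.4-fold) were higher, with adjusted p from 0.000193 to 0.000942 by edgeR, against 13.4% of 14584 genes called and 6.92% called higher. The median log2 value was 2.71 over the 8 genes and -0.05 over all genes. Tnfsf9 was not called there and was lower in all 3 libraries (log2 -0.65, SE 0.233, adjusted p = 0.0672, edgeR).

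Between group D and group B, 2 members were called, Tnfsf9 and Tnfsf10, both lower, against 6.08% of 14234 genes called in either direction and 3.65% called lower. The median log2 difference was -1.08 over the 8 genes and 0.03 over all genes. Libraries of Tnf, Tnfrsf1a and Tnfrsf1b also lay lower in group D without overlap, as did 22.5% of all genes tested, and were not called. With any 1 library left out of group D, no member was called, and 4 to 15 genes of the whole table were. Between group C and group A, edgeR called none of the 8 genes and none of 14701 genes (0%), while 3624 genes had an unadjusted p under 0.05. DESeq2 called 2 of the 8 (Tnfsf9 and Tnfsf15) and 3.16% of all genes in that pair. At an adjusted p under 0.05 edgeR called 1 of the 8 (Tnfsf15) and 0.626% of all genes. The median log2 value was -0.18 over the 8 genes and -0.03 over all genes. Tnfsf15 and Tnfrsf1b were higher and Tnfsf9 lower there without overlap, and 35.5% of all genes did not overlap.

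**Figure D3:**
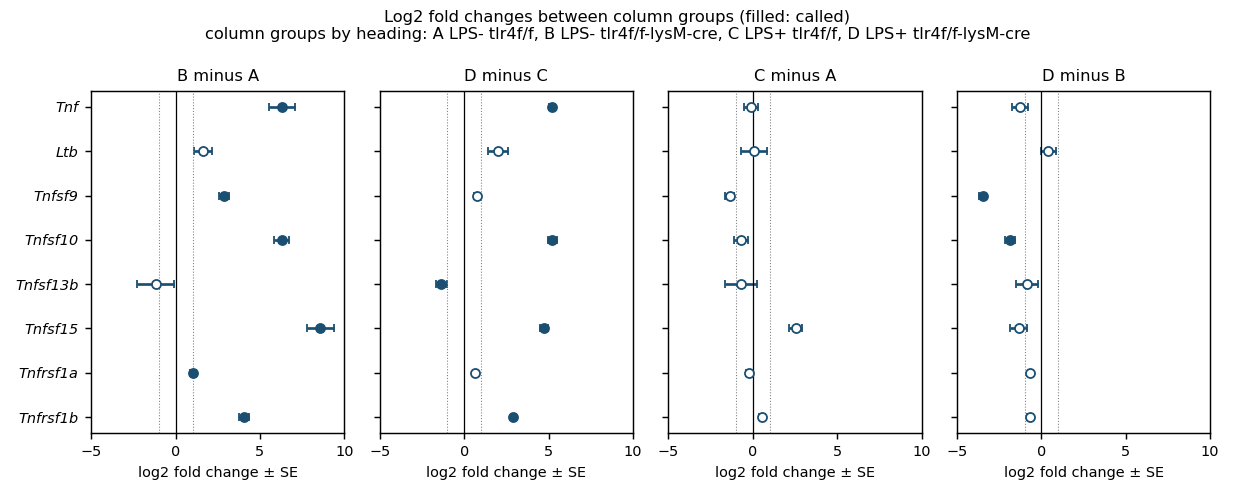
Log2 fold change of each gene with its SE between 4 pairs of the column groups A (LPS- tlr4f/f), B (LPS- tlr4f/f-lysM-cre), C (LPS+ tlr4f/f) and D (LPS+ tlr4f/f-lysM-cre), named by their headings, with dotted lines at a fold of 2. Filled points were called (fold over 2 and adjusted p under 0.01, edgeR): 6 and 5 genes in the left pair of panels, none in the third, and Tnfsf9 and Tnfsf10 in the fourth. In the third pair none of all 14701 genes tested was called.

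Other genes of the family and pathway were read from 3 lists. Over all genes tested, edgeR called 17.1% between group B and group A (9.25% higher). Between group D and group C it called 21.7% (10.8% higher and 10.9% lower). Of 12 other ligands, 8 could be tested between group B and group A and 6 between group D and group C. Tnfsf4, which encodes OX40 ligand, was the only one called higher in both pairs (log2 5.63, SE 1.01, adjusted p = 0.00728, and log2 2.87, SE 0.157, adjusted p = 8.43e-09, edgeR), at 0.333 CPM in group A, 17.1 in group B, 1.75 in group C and 12.9 in group D. Between group D and group C, 3 other ligands were called lower, led by Tnfsf14 (LIGHT), which went from 1.88 to 0.242 CPM (log2 -2.96, SE 0.411, adjusted p = 4.46e-05, edgeR), with Tnfsf12 and Tnfsf13 (APRIL), which are neighbours on chromosome 11. Lta, which adjoins Tnf, had 1 to 115 counts. Between group B and group A its log2 value was 4.29 (SE 0.972, adjusted p = 0.0153, edgeR), which was not called. Nor was its difference between group D and group B (log2 -2.61, SE 0.823, adjusted p = 0.0578, edgeR). In the other pairs Lta did not pass the count filter and was not tested. The list's median log2 value was 1.67 for group B against group A and -1.04 for group D against group C.

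Of 26 other receptors, 18 were tested between group B and group A, where 4 were called higher and 1 lower, and 16 between group D and group C, where 5 were called higher and 3 lower. Over all genes, 17.1% were called in the first of these pairs and 21.7% in the second. The largest rise was that of Cd40, a receptor for T-cell help, in both pairs (log2 7.75 and 6.84, adjusted p = 0.00294 and 3.90e-05, edgeR), with mean levels of 4.43 CPM in group A, 967 in group B, 2.89 in group C and 325 in group D. The largest falls were those of Tnfrsf21 (DR6) between group B and group A (log2 -1.88, SE 0.250, adjusted p = 0.00248, edgeR) and Tnfrsf12a (the TWEAK receptor) between group D and group C (log2 -2.91, adjusted p = 1.24e-09, edgeR). From group B to group D, where 6.08% of all genes were called, Tnfrsf21 rose (log2 1.33, adjusted p = 0.00642, edgeR) and 3 receptors fell. The largest of these falls was that of Tnfrsf23, a decoy TRAIL receptor, which was at 9.74 CPM in group A, 5.70 in group B, 0.0610 in group C and 0.0554 in group D. The list's median log2 values were 0.10 and -0.21 in the first pairs.

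Of 26 genes of receptor signalling and ligand shedding, 13 were called between group B and group A and 14 between group D and group C, all higher, with list medians of 1.43 and 1.15 on the log2 scale. Over all genes, 9.25% were called higher in the first of these pairs and 10.8% in the second. Tnfaip3, which encodes the deubiquitinase A20 that restrains TNF receptor signalling, had the largest rise in the first pair (log2 5.90, adjusted p = 0.00123, edgeR), from 29.2 to 1755 CPM. Traf1, an adaptor bound by TNFR2, had the largest in the second (log2 3.88, adjusted p = 1.11e-05, edgeR), from 6.71 to 98.9 CPM. Adam17, the protease that sheds TNF-alpha and both receptors, rose from 227 to 567 CPM in the first pair and from 285 to 908 CPM in the second, and both rises were called. From group B to group D, where 6.08% of all genes were called, 6 genes fell and Traf5 rose (log2 1.58, adjusted p = 0.00547, edgeR). The largest of these falls was that of Traf1 (log2 -2.41, adjusted p = 0.00644, edgeR). From group A to group D, 10 were called higher, with Tnfaip3 the largest (log2 3.78, adjusted p = 0.00323, edgeR), against 13.4% of all genes called and 6.92% called higher. In that pair the other ligands had 1 called higher (Tnfsf4) and 1 lower (Tnfsf14), and the other receptors 4 higher and 5 lower, with Cd40 and Tnfrsf23 the largest. By edgeR, no gene of the 3 lists was called between group C and group A or for the interaction, where 0% and 1.04% of all genes were called. Large differences were among those not called between group C and group A. Tnfrsf23 (log2 -7.23, SE 0.848) and Tnfrsf26 (log2 -8.50, SE 0.996) were lower in group C, each at an adjusted p of 0.0394 by edgeR.

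**Figure D4:**
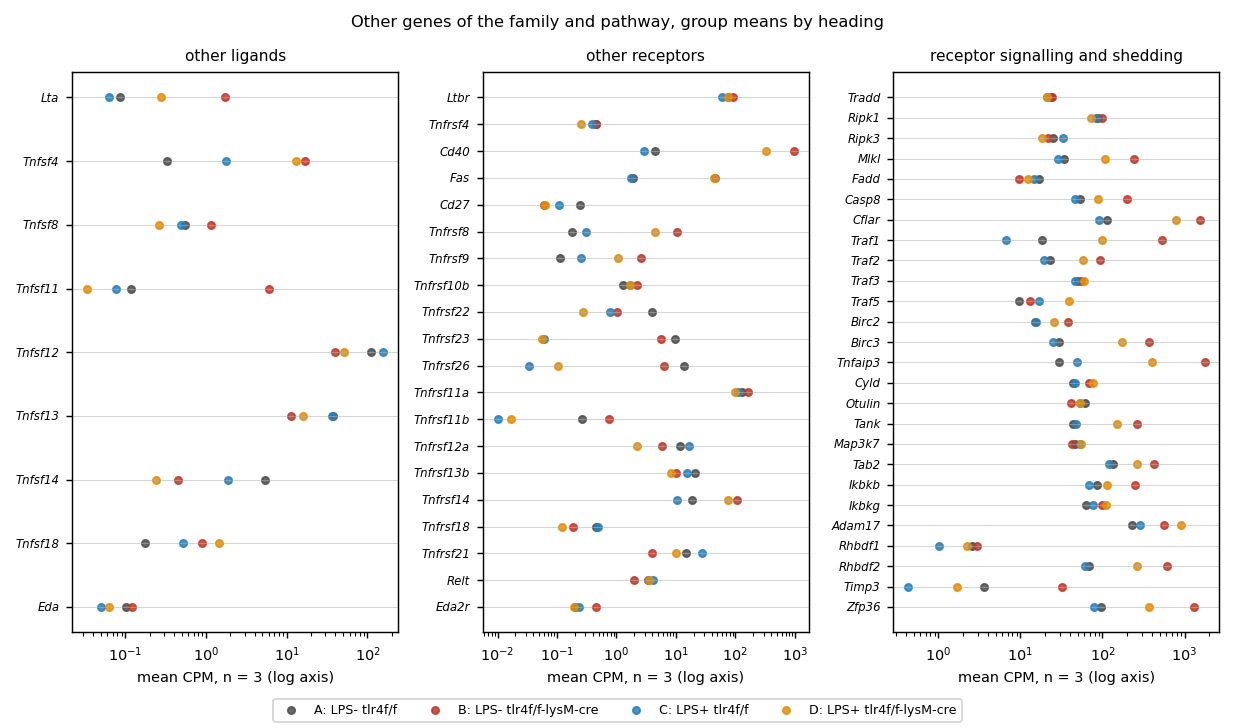
Mean CPM (n = 3, log axis) of the other ligands, other receptors and genes of receptor signalling and shedding in the 4 column groups, for the genes with at least 10 counts in some library (9 of 12, 20 of 26 and 26 of 26). Means under 0.01 CPM are drawn at 0.01. Cd40, Tnfaip3 and Traf1 lie far to the right in group B and group D, while Tnfsf14 and Tnfrsf12a are lowest in group D.

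Patterns over the 12 libraries were compared with those of all other genes by the Euclidean distance between log2 CPM values centred on each gene's mean, so that a smaller distance means a more similar profile. The nearest profile to Tnf was that of Ccl3, a chemokine (distance 0.786, against a median of 10.4 over all genes), followed by Cdc42ep2 (1.35). The nearest to Tnfsf10 were Socs1, a cytokine-induced inhibitor of signalling (1.12, median 10.5), and Cmpk2 (1.54). Those nearest to Tnfsf15 were farther away, Itgb8 at 2.35 and Bcl2a1d at 3.12, against a median of 12.1. For Tnfrsf1b the nearest were Gm47079 (0.716) and Icam1 (0.784), against a median of 6.49. Gm47079 lies antisense to the end of Icam1, and no source used here states that counting used strand, so reads of these cannot be told apart. For Tnfrsf1a they were Tbc1d10b (0.329) and Cox17 (0.343), against a median of 2.80, and for Tnfsf9 they were H2-Q5 (1.64) and 1600014C10Rik (1.84), against 6.00. H2-Q5 and Bcl2a1d belong to families of close paralogs that could share reads. The nearest were Gm26545 (1.81) and 9130208D14Rik (1.85) for Ltb and Rgl3 (1.87) and Fam161b (1.96) for Tnfsf13b, against medians of 4.29.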

How the data were processed

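Per the labels and the study's methods, the authors removed adapters and low-quality reads (Trimmomatic 0.36), used HISAT2 to align reads of 12 libraries to mm10, and obtained counts from HTSeq. The labels name both ribosomal RNA removal and polyA selection. The deposited values are raw counts per transcript with no normalization, in 115140 rows. HISAT2 and HTSeq versions are not given in the sources used here.

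Rows were reduced to 43131 genes, keeping the row with the highest total, and 7551 of 7596 Ensembl gene IDs were matched to symbols. Groups followed the column headings. Each pair of groups was fitted on its 6 libraries with edgeR 4.0.16 (R 4.3.3: filterByExpr, TMM, robust quasi-likelihood test, Benjamini-Hochberg over all genes tested). The study's thresholds, a fold change over 2 and an adjusted p under 0.01, were kept, while DESeq2 1.42.0 served as an alternative to its DESeq test. The interaction used all 12 libraries. The receptor ratio was compared by exact two-sided permutation. The edgeR step was tested on simulated data. The members, gene lists and motifs were chosen with earlier results of these data known.

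Named genes were the 8 members, the heading checks Tlr4, Lyz2 and Il1b, the 2 nearest profiles of each member (log2 CPM, prior count 2), and from each of 3 lists in each pair the gene called with the greatest rise and that with the greatest fall. Adam17, Lta, Tnfsf12, Tnfsf13 and Tnfrsf26 were named beyond that rule after their values were seen. Alternatives were DESeq2, RLE factors, other count filters, 1 fit of all libraries, a replicate block, sums over transcripts, an adjusted p under 0.05 and leaving out each library. Depth was 33577087 to 56445268 counts per library, so a few counts, as for Ltb, give wide counting error.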

Additional observations from a re-analysis of the deposited data

Results flagged for a closer look

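The change of Tnfsf9 from group C to group D differed from its change from group A to group B, by -2.10 on the log2 scale (SE 0.349, adjusted p = 0.00877, edgeR interaction term), and a test of this difference between 2 contrasts is what set it apart. In both contrasts all 3 libraries of the second group lay above all 3 of the first, by 7.16-fold between group A and group B and by 1.68-fold between group C and group D. The value was the same with the headings of groups B and C exchanged. It was called in 6 of 18 settings, and without single libraries its adjusted p ran from 0.00544 to 0.0338 by edgeR. Of all genes tested, 0.38% were called lower for this term.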

How the results depend on the processing

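The number of members called stayed within 1.5 times its value in every alternative for group B against group A (4 to 6 members), group D against group C (4 to 6) and group D against group A (4 or 5). Over the same alternatives, 1038 to 4251 genes of the whole table were called in the first of these pairs and 2045 to 3507 in the second. Between group C and group A, none was called with any single library left out, 2 were called by DESeq2 and 1 at an adjusted p under 0.05. Between group D and group B, 1 was called with counts summed over transcripts, and 0 to 2 without single libraries (none without replicate 1, 2 or 3 of group D). For the interaction, DESeq2 called 3, a minimum of 10 counts in every library 2, an adjusted p under 0.05 gave 3, sums over transcripts 0, and leaving out single libraries 0 to 2, the cause of which was not tested.

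Residuals of same-numbered libraries correlated at -0.04 to 0.47, with 4 of 15 pairs over 0.1, and the main tests did not pair samples by number. The highest values were between group B and group A, at 0.47, 0.34 and 0.01 for replicates 1, 2 and 3. Different-numbered libraries of these 2 groups gave -0.49 to 0.20. Whether these 2 groups were paired was not settled. With a replicate block, the log2 value of Tnf between them was 6.25 (SE 0.332), against 6.32 (SE 0.780) without it. With a replicate block, 1 member was called between group D and group B (212 genes of the whole table, against 865 without it). The block gave 5 between group B and group A (2198 genes, against 2497) and 6 between group D and group C (3246 genes, against 3161). Between group C and group A the block turned 3 uncalled differences, to 0.026 for Tnf, -0.14 for Ltb and 0.052 for Tnfsf13b on the log2 scale.

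Other reversals were of uncalled values and came from leaving out single libraries. Between group C and group A the log2 ranges were -0.47 to 0.34 for Tnf, -1.02 to 0.52 for Ltb and -1.23 to 0.73 for Tnfsf13b. Tnfsf13b ranged from -1.72 to 0.24 between group B and group A. For the interaction, Ltb ranged from -0.10 to 1.43 and Tnfsf13b from -1.59 to 0.39. The log2 receptor ratio between group D and group B ranged from -0.11 to 0.12. Over the single genes, 594 alternative values kept direction and call, 33 lost the call, 14 gained it and 15 changed sign. Depth limits Ltb, with 6 to 57 counts per library, and Tnfsf13b, with 8 to 230.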
